A study of Mus musculus with 15 samples.

Results

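In fibroblasts cultured from mouse embryos (MEFs), 28 genes were expressed in every wild-type (WT) library and near silent in every library labelled as a knockout of the histone methyltransferase NSD2. A gene was taken where it held 5 CPM or more in each of 8 WT libraries and below 0.5 CPM in each of 7 knockout (KO) libraries. CPM is the count of a gene per 1000000 counts in genes, leaving out the ribosomal transcript Rn45s and Lars2. These 28 were taken from the 24015 genes in each table, of which 9566 were at 5 CPM or more in every WT library. Another 3 genes met both thresholds and were set aside by name (Hoxd8, Hoxd9 and Nkx2-5), since Hox and collagen genes and a few heart-field and muscle genes were not considered. The genes were selected on their levels in these WT and KO libraries, so every difference between the genotypes below is a description without a test.

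NSD2 places methyl groups on lysine 36 of histone H3. Methylated forms of this lysine, not all of them made by NSD2, occur along transcribed genes. They are bound by proteins that act on DNA methylation or histone acetylation. Fibroblasts from different sites of the body hold to different sets of developmental genes in culture, and neuronal and germline genes are usually kept off in them. Interferon beta acts through a receptor on nearly every cell and switches on antiviral genes within hours, and cells that met it once can respond differently later.

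All libraries came from c57bl/6 MEFs, labelled Nsd2(+/+) for WT and Nsd2(-/-) for KO. The cells were naive, or pretreated for 3 h with interferon beta, then washed and rested for 24 h. RNA of both kinds was taken either before (0 h) or after a 2 h exposure to interferon beta at 100 units per ml. That gives 8 groups of 2 libraries each, except 1 library for KO naive 2 h, and 15 libraries in all. The labels name no embryo, sex or separate culture for any library, so genotype and the cultures behind it cannot be told apart, and the replicate spread behind each p-value may be technical.

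Libraries held 17170845 to 44116418 counts in genes (median 28585502), and 1 count stood for 0.0269 to 0.0784 CPM. Rn45s and Lars2 took 10.6% to 29.4% of the counts, below 20% in 3 libraries (WT naive 0 h replicate 1, WT pretreated 2 h replicate 1 and KO pretreated 0 h replicate 2). The targeted gene, listed as Whsc1, ran from 145 to 199 CPM in WT (median 166) and from 129 to 153 CPM in KO (median 138). Such a total says nothing of a deletion confined to some exons. Of 13 fibroblast markers, 11 were at 5 CPM or more in every WT library and 11 in every KO library, while Thy1 stayed at or under 0.235 CPM in WT and lay between 38.8 and 47.8 CPM in KO. Summed markers of cartilage and bone were at 135 to 313 CPM in WT and 1987 to 2368 CPM in KO, and those of endothelium at 6.31 to 10.5 CPM and 34.8 to 40.3 CPM. Lower in KO, as the 28 genes are, were summed markers of heart muscle (30.5 to 76.8 CPM in WT and 4.96 to 27.5 CPM in KO), of smooth muscle (2315 to 2995 and 1308 to 2185 CPM) and of macrophages and blood (18.4 to 25.96 and 7.446 to 12 CPM). In WT, Tnnt2 held most of the first sum (27.5 to 74.1 CPM, and 0.661 to 2.74 CPM in KO), Acta2 most of the second (2033 to 2577 and 1049 to 1722 CPM) and Cd14 most of the third (12.1 to 21.2 and 4.64 to 8.63 CPM). In KO, other heart markers held most of the highest heart sum, 27.5 CPM against at most 2.74 CPM for Tnnt2. The lower heart sum in KO is thus that of Tnnt2, and not of the list as a whole. The defining heart markers Actc1 and Myl2 had no count in WT, and the macrophage markers Emr1, Tyrobp, Aif1, C1qa and C1qc none in any library. The part of these marker differences in the results was not tested. In bulk libraries, fewer cells of a type and less RNA per cell cannot be told apart.

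Summed over all 28 genes, WT libraries held 447 to 521 CPM and KO libraries 3.46 to 4.16 CPM, or 62 to 118 counts per KO library. The ratio of WT to KO, from counts summed over libraries and scaled to depth, had a median of 152 and ran from 26.5 for 3110039M20Rik to 1598 for Kcnq5. Counts did not vanish everywhere: 15 of the 28 genes kept at least 1 count in all 7 KO libraries. Within WT the levels were steady, with the highest library at a median of 1.37 times the lowest over the 28 genes and 1.31 times over the 9566 genes expressed in WT. Of the 28 genes, 21 stayed under 1.5 times, and Scn3a alone passed 2 times, at 2.64. The plot of CPM by library shows the gap that the rule opened between the genotypes.

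**Figure D1:**
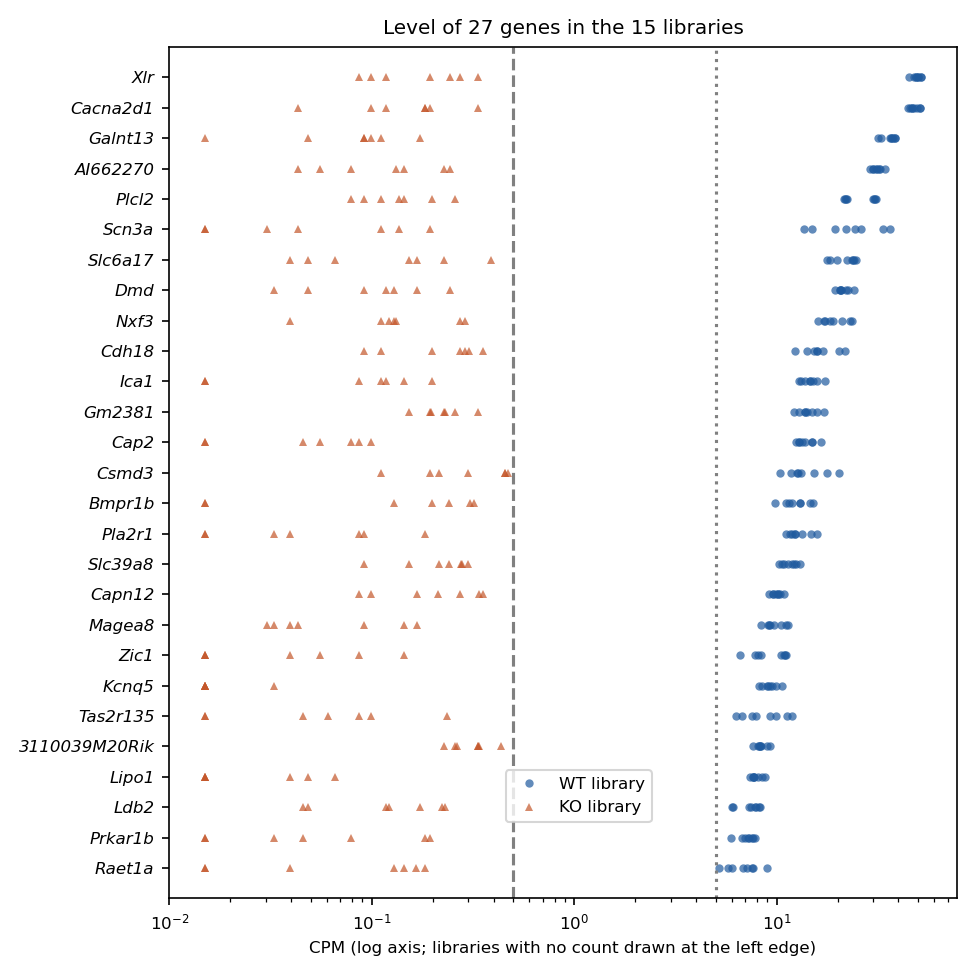
Each row is 1 gene (27 of the 28), each circle a WT library (n = 8) and each triangle a KO library (n = 7), on a log axis of CPM; the dotted line marks 5 CPM and the dashed line 0.5 CPM. WT circles of a gene lie close together except for Scn3a, which spreads from 13.7 to 36.2 CPM, and Kcnq5 has 6 KO libraries at the left edge, with no count.

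The first group codes for ion channel subunits and a transporter with known roles in neurons, though not all are particular to neurons. Cacna2d1, an auxiliary subunit that brings voltage-gated calcium channels to the membrane, had 44.6 CPM in its lowest WT library, a median of 47.2 and 51.3 in the highest. In KO its lowest, median and highest values were 0.0432, 0.183 and 0.334 CPM. Scn3a, the pore of a voltage-gated sodium channel of the early nervous system, lay between 13.7 and 36.2 CPM in WT (median 23.3) and between 0 and 0.193 CPM in KO (median 0.0432). Even the lowest WT library of each therefore stood far above the highest KO library, as the rule demands.

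Kcnq5, a potassium channel that dampens firing, ran from 8.15 through a median of 9.19 to 10.6 CPM in WT. Its KO libraries held 1 count in all, in naive 0 h replicate 2, and the WT to KO ratio of 1598 has a 95% counting interval of 286 to 63150. Slc6a17, a carrier that loads neutral amino acids into synaptic vesicles, had 17.8 to 24.7 CPM in WT and 0.0394 to 0.389 CPM in KO. The counting interval covers counting error only, and it is wide because so few KO counts stand behind it.

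Defining markers of nerve cells and glia were mostly at or near 0. Of 20 such markers, 2 (Tubb3 and Map2) were at 5 CPM or more in every WT library. In every KO library 2 reached that level, 1 of which stayed below 0.5 CPM in every WT library. Another 12 stayed below 0.5 CPM in every library, and Rbfox3, Nefl, Olig2 and Foxd3 had no count in any. The summed list was lower in WT (32.1 to 47.7 CPM) than in KO (93.6 to 122 CPM). Relatives within the channel families were also mostly silent: no other alpha-2/delta, sodium channel alpha or KCNQ gene reached 1 CPM in every library of a genotype. Families were drawn up by symbol after the 28 genes were known.

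The second group holds adhesion and surface proteins and the enzymes and scaffolds behind them. Cdh18, a type II cadherin that joins like cells, ran from 12.4 through 15.8 to 21.9 CPM in WT and from 0.0914 through 0.274 to 0.354 CPM in KO. Csmd3, a large membrane protein with CUB and sushi domains, ran from 10.4 through 12.99 to 20.4 CPM in WT, and its 0.472 CPM in 1 KO library was the value nearest the ceiling of all 28. Dmd encodes dystrophin, which ties the actin skeleton to the muscle membrane, and had 19.5 to 24.1 CPM in WT and 0.0331 to 0.244 CPM in KO. Galnt13, which starts mucin-type sugar chains on proteins and is known from nerve tissue, had 31.8 to 38.4 CPM in WT and at most 0.173 CPM in KO. Ica1, an islet cell autoantigen in diabetes, had 12.9 to 17.4 CPM in WT and at most 0.198 CPM in KO.

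Their relatives went in both directions between the genotypes. Beside Cdh18, the type II cadherin Cdh10 stood at a median of 15.7 CPM in WT and 0.984 CPM in KO, whereas Cdh11, the usual cadherin of mesenchyme, stood at 14.2 CPM in WT and 403 CPM in KO. Beside Galnt13, Galnt18 had medians of 26.2 and 1.64 CPM and Galnt12 0.674 and 16.3 CPM, while Galnt1 (123 and 165 CPM) and Galnt2 (179 and 153 CPM) were present in both. For the dystrophin complex, Utrn, the widely expressed counterpart of dystrophin, had 546 CPM in WT and 500 CPM in KO, and dystroglycan (Dag1) had 196 and 202 CPM. Dystrobrevin alpha (Dtna) had 36.3 and 3.89 CPM. None of the 16 skeletal muscle markers in the tables reached 5 CPM in every library of a genotype, and Myod1, Myh8 and Ckm had no count. Summed, these markers were lower in WT (3.9 to 5.64 CPM) than in KO (9.19 to 18.4 CPM), unlike Dmd.

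**Figure D2:**
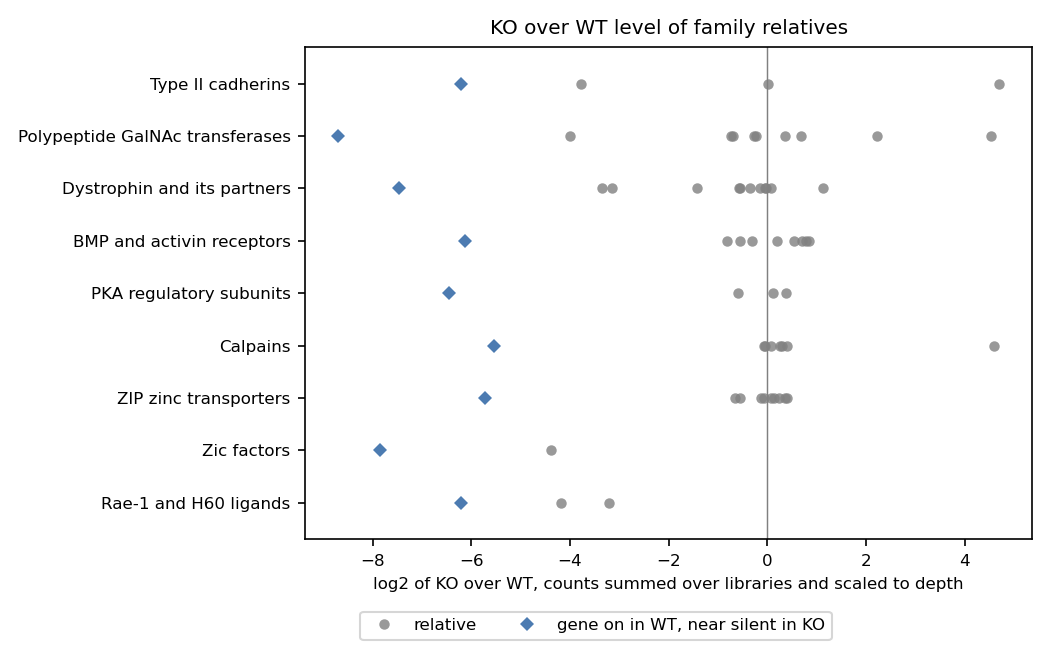
The horizontal axis is the log2 ratio of KO to WT counts summed over libraries and scaled to depth; each row is a gene family, diamonds are genes of the 28 and grey circles their relatives at a mean of 1 CPM or more in either genotype and over 3 counts in both. Diamonds lie left by the rule; the grey circles of the PKA subunits and ZIP transporters lie near 0, and Cdh11 and Capn6 lie far right.

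The third group carries signals or regulates other proteins. Bmpr1b, a type I receptor for bone morphogenetic proteins, ran from 9.82 through 12.5 to 15.2 CPM in WT and had no count in 2 KO libraries, while its sister receptor Bmpr1a had medians of 177 CPM in WT and 265 CPM in KO. Prkar1b, a regulatory subunit of protein kinase A found mainly in brain, had 5.95 to 7.84 CPM in WT, and the widely expressed Prkar1a had medians of 201 and 223 CPM. Cap2, which turns over actin in heart and muscle, had 12.5 to 16.5 CPM in WT, beside 422 and 387 CPM for Cap1. Ldb2, a cofactor of LIM-homeodomain factors, had 6.01 to 8.30 CPM in WT, beside medians of 44.9 and 84.0 CPM for Ldb1. For each of these 4, a relative was thus present in both genotypes.

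Plcl2, a catalytically inactive relative of phospholipase C that binds inositol phosphates, had 21.7 to 31.1 CPM in WT and 0.0787 to 0.259 CPM in KO. Pla2r1, the receptor for secreted phospholipase A2, had 11.1 to 15.8 CPM in WT and at most 0.183 CPM in KO. Slc39a8, which imports zinc and manganese, had 10.3 to 13.1 CPM in WT and 0.0914 to 0.298 CPM in KO. Capn12, a calcium-dependent protease known from hair follicles, had 9.18 to 10.9 CPM in WT and 0.0864 to 0.354 CPM in KO. Its relative Capn6 went the other way, with medians of 8.89 CPM in WT and 205 CPM in KO.

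Zic1, a zinc finger factor of the dorsal neural tube and somites, is the transcription factor of the set. It ran from 6.59 through 9.47 to 11.2 CPM in WT, with 7 counts over all KO libraries. Other Zic genes shared the direction at lower levels. Zic5 lay between 3.45 and 5.07 CPM in WT with 2 counts in KO, Zic2 had medians of 1.20 and 0.0661 CPM, and Zic4, which overlaps Zic1, had 0.363 and 0 CPM.

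The fourth group is X-linked and of testis or germline type. Xlr, which gives its name to a lymphocyte-regulated gene family linked to meiosis, ran from 45.1 through 49.4 to 51.8 CPM in WT and from 0.0864 through 0.193 to 0.334 CPM in KO. Magea8, of the melanoma antigen family expressed in testis and tumours, had 8.38 to 11.3 CPM in WT and 0.0305 to 0.167 CPM in KO. Nxf3, a testis-type relative of the mRNA exporter Nxf1, had 16.0 to 23.6 CPM in WT and 0.0394 to 0.290 CPM in KO, while Nxf1 itself had medians of 152 and 160 CPM. With Dmd, 4 of the 27 genes matched to the RefSeq gene table were X-linked (14.8%), against 3.40% of 9535 matched genes expressed in WT.

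Other germline genes were near silent in both genotypes. Of 37 such genes in the tables, none reached 5 CPM in every library of a genotype and 31 stayed below 0.5 CPM everywhere, with sums of 2.96 to 5.11 CPM in WT and 4.58 to 5.90 CPM in KO. All 9 other Xlr genes and 7 other Magea genes stayed below 0.5 CPM in every library. Xist, the RNA of the inactive X, did not exceed 0.323 CPM in any library. The Y-linked genes Ddx3y, Eif2s3y, Kdm5d and Uty lay between 13.8 and 42.1 CPM in WT and between 34.0 and 114 CPM in KO.

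The remaining 6 genes have little in common. Tas2r135, a bitter taste receptor, ran from 6.27 through 8.62 to 11.9 CPM in WT, and the other 34 taste receptors of its type stayed below 0.5 CPM in every library. Lipo1, of the acid lipase family, had 7.43 to 8.77 CPM in WT and 4 counts in KO. Raet1a, a Rae-1 ligand that marks stressed cells for natural killer cells through NKG2D, ran from 5.20 through 7.003 to 8.94 CPM in WT. Its relatives Raet1d and Raet1e had medians of 2.25 and 3.17 CPM in WT and 0.264 and 0.152 CPM in KO, and H60b, another ligand of that receptor, had 1 count in WT and 3.44 to 6.82 CPM in KO. The long noncoding RNAs AI662270 (29.0 to 34.4 CPM) and 3110039M20Rik (7.63 to 9.28 CPM) and the transcribed pseudogene Gm2381 (12.2 to 17.2 CPM) complete the WT values. In KO these 3 had counts in every library and at most 0.244, 0.433 and 0.334 CPM.

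Values of Xlr, Magea8, Raet1a, Lipo1 and Gm2381 are uncertain because near-identical copies could share their reads. Raet1a had no match in the RefSeq gene table, and whether its reads are separate from those of Raet1d and Raet1e was not tested. Capn12, Cdh18, Dmd, Nxf3, Prkar1b, Slc39a8 and Zic1 overlap a neighbouring gene, whose reads cannot be told apart without a stated strand setting. Per kilobase of exon in the GENCODE vM21 annotation, Xlr had the highest mean WT level (21.1 ± 0.918 CPM per kb, SD, n = 8), then AI662270 (10.3 ± 0.563) and 3110039M20Rik (8.69 ± 0.530). Csmd3 (0.847 ± 0.198) and Dmd (0.899 ± 0.0613) were lowest and did not differ from each other beyond their spread.

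Near the thresholds the set shades into its surroundings. Close inside the WT floor were Raet1a (lowest WT library 5.20 CPM) and Prkar1b (5.95), and those nearest outside were Wbscr17 (4.69), Serpinb9c (4.63) and Gm5622 (4.53). The genes nearest inside the KO ceiling were Csmd3 (highest KO library 0.472 CPM), 3110039M20Rik (0.433) and Slc6a17 (0.389). Robo1 (0.502), Gdf5 (0.518) and Ndnf (0.529) lay nearest outside it.

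Gene length, which the rule did not use, set the 28 apart from other genes expressed in WT as a description. Of the 27 with a GENCODE length, the median span from first to last annotated base was 133 kb, against 25.7 kb for 9524 genes expressed in WT. Spans over 100 kb were found in 15 of the 27 (55.6%), against 13.3%, and spans over 200 kb in 9 (33.3%), against 4.68%. The longest were Dmd (2260 kb), Csmd3 (1210 kb), Cdh18 (925 kb), Galnt13 (682 kb) and Kcnq5 (564 kb), and the shortest Tas2r135 (1.09 kb) and AI662270 (3.03 kb). For the 49 genes with the reverse pattern (5 CPM or more in every KO library and below 0.5 in every WT library), the median was 28.7 kb and 32.7% were over 100 kb. In the plot of cumulative gene span, the curve of the set lies to the right of the other at 100 kb.

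**Figure D3:**
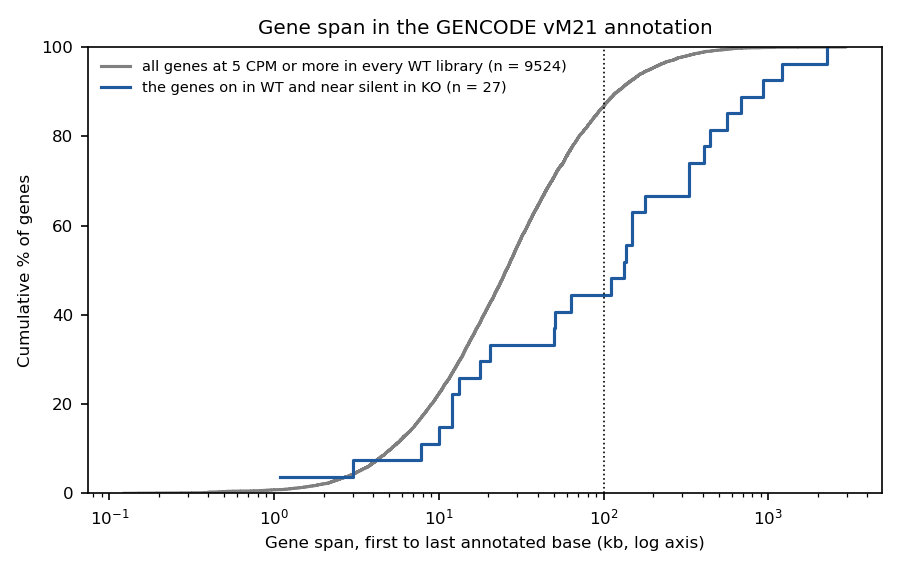
The horizontal axis is gene span in kb on a log scale and the vertical axis the cumulative percent of genes, for 27 of the 28 genes (blue) and for 9524 genes at 5 CPM or more in every WT library (grey); the dotted line marks 100 kb. Right of that line lie 55.6% of the blue genes and 13.3% of the grey ones.

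The start sites of these genes were mostly poor in CpG, the dinucleotide that vertebrate genomes methylate and that gathers at the promoters of widely used genes. RefSeq (GRCm38.p6) gave a window of 250 bases before to 50 after a start for 19 of the 28; AI662270, Csmd3, Gm2381, Ldb2, Nxf3, Plcl2, Raet1a and Scn3a had no entry. Taking the window with most CpG per gene, 6 of the 19 were CpG-rich (an observed to expected CpG ratio of 0.6 or more and at least 50% G and C), or 31.6%. The share was 79.5% of 7729 genes expressed in WT and 35.9% of all 27025 genes with a window. The median number of CpG was 12 in the set, 23 among expressed genes and 8 among all genes. The CpG-rich ones were Cacna2d1, Galnt13, Kcnq5, Prkar1b, Slc6a17 and Zic1.

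The range is shown by the 250 bases before the start of 5 genes, 2 CpG-rich and 3 CpG-poor, written 5′ to 3′ on the strand of the gene with each CG in capitals. They lie at chr5:15934441-15934690 (plus strand, 36 CG) for Cacna2d1, chr9:91365769-91366018 (minus strand, 27 CG) for Zic1, chrX:53797707-53797956 (minus strand, 4 CG) for Xlr, chrX:154995851-154996100 (minus strand, 7 CG) for Magea8 and chr6:42405279-42405528 (plus strand, 1 CG) for Tas2r135, in GRCm38.p6.
Cacna2d1: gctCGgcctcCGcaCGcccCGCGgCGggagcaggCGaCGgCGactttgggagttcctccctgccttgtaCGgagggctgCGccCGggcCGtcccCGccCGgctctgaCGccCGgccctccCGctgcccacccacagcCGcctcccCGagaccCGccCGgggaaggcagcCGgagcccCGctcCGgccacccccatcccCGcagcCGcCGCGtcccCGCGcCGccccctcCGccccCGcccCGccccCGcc
Zic1: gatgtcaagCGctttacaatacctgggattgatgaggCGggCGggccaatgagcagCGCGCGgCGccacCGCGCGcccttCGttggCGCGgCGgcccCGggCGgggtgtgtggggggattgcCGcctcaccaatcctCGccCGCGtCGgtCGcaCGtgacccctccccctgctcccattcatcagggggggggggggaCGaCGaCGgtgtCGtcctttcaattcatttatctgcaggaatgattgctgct
Xlr: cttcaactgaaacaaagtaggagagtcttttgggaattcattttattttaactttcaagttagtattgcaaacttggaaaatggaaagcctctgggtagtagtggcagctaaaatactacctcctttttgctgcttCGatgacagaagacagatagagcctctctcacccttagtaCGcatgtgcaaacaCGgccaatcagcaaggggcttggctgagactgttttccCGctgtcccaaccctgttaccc
Magea8: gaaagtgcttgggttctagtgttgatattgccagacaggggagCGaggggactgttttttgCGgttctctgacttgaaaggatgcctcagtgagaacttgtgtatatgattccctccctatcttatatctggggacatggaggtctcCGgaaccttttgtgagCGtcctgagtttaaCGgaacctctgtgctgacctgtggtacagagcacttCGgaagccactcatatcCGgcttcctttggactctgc
Tas2r135: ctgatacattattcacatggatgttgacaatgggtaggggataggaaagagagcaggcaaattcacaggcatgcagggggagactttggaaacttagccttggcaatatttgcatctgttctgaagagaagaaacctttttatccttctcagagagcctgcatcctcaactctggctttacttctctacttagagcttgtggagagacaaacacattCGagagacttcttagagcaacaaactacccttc

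Capitals crowd the first and second and are scattered through the others. A pair of short motifs was searched on both strands of the same windows. GGGCGG, the core of the GC box bound by Sp1 and itself holding a CG, was present in 8 of the 19 (42.1%), against 71.3% of genes expressed in WT and 37.3% of all genes. TATAAA was present in 2 (10.5%), against 5.98% and 13.7%. A match describes letters in these windows and nothing more.

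No 2 of the genes adjoined each other among the genes in the tables. The closest were Pla2r1 and Scn3a on chromosome 2, with 18 counted genes between them, and Galnt13 and Pla2r1, with 25. The nearest counted gene on either side gave 54 neighbours, of which 19 had a mean of 1 CPM or more in a genotype. The KO level was under 0.5 times the WT level for 5 of the 19 (26.3%), against 6.02% of 12228 genes at that level outside the set, and over 2 times for 3 (15.8%), against 10.7%.

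Among neighbours lower in KO, Glcci1, beside Ica1, had means of 20.9 and 1.41 CPM, and Slfn3, a Schlafen gene beside AI662270, 4.77 and 0.450 CPM. Rnls, beside Lipo1, had 2.17 and 0.424 CPM, and Scn2a1, the sodium channel gene beside Scn3a, 2.146 and 1.03 CPM. In the other direction, Hgf, the hepatocyte growth factor gene after Cacna2d1, had 0.671 CPM in WT and 39.7 CPM in KO, Unc5c beside Bmpr1b 26.4 and 71.2 CPM, and Tbc1d2b beside Zic1 38.8 and 118 CPM. Libraries of the genotypes overlapped for Scn2a1.

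Interferon comparisons within WT were put to edgeR's quasi-likelihood test across 13802 genes. The rule did not use these differences, but it asked for 5 CPM or more in every WT library, interferon-treated ones included. Genes that interferon took below that floor, or raised from below it, could not enter. It also asked for below 0.5 CPM in every KO library, again with interferon-treated ones included. Genes that interferon raised above that ceiling in KO could not enter either. The 13802 tested genes had no such floor or ceiling. Shares of the 28 and of all tested genes therefore come from unlike sets. All 28 genes passed the filter on low counts, which the WT floor makes sure of. In naive WT cells after 2 h of interferon beta, 6 of 28 were called at an adjusted p below 0.05 (1 higher, 5 lower), a share under the 30.6% called among all tested genes. By direction, 15% of all tested genes were called higher and 15.6% lower. The median log2 change was -0.0432 over the 28 and -0.0175 over all tested genes. Changes below are fitted after TMM scaling, so they differ somewhat from ratios of the CPM values.

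Plcl2 had 30.7 and 30.3 CPM in the naive 0 h libraries and 22.01 and 21.7 CPM at 2 h. It fell by 0.40 ± 0.084 on the log2 scale (SE, edgeR adjusted p = 0.00049). Tas2r135 had 7.96 and 6.27 CPM at 0 h and 9.90 and 11.3 CPM at 2 h, and rose by 0.60 ± 0.15 (adjusted p = 0.0026). Both calls held under all 15 alternatives run. The libraries at 0 h and 2 h did not overlap in either gene, as in 19 of the 28 genes and 66.6% of all tested genes.

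Zic1 had 10.6 and 11.1 CPM at 0 h and 6.59 and 7.79 CPM at 2 h, a log2 change of -0.51 ± 0.13 (edgeR adjusted p = 0.0043). Scn3a had 36.2 and 33.5 CPM at 0 h and 24.5 and 26.2 CPM at 2 h, a change of -0.39 ± 0.096 (adjusted p = 0.0022). Cdh18 (-0.32 ± 0.10, adjusted p = 0.018) and Csmd3 (-0.32 ± 0.12, adjusted p = 0.046) also fell. Each of these 4 calls was lost when 1 library was left out, and DESeq2 did not call Zic1 (adjusted p = 0.073), Cdh18 (0.15) or Csmd3 (0.19). Without WT naive 2 h replicate 1, the adjusted p was 0.14 for Zic1, 0.064 for Scn3a and 0.10 for Cdh18. Without WT naive 2 h replicate 2 it was 0.073 for Cdh18 and 0.33 for Csmd3, without WT naive 0 h replicate 1 it was 0.080 for Scn3a, and without WT naive 0 h replicate 2 it was 0.085 for Cdh18 and 0.22 for Csmd3. Csmd3 also lost its call without WT pretreated 0 h replicate 1, a library in neither group of this comparison. Leaving it out moved the fitted log2 changes themselves, from -0.32 to -0.29 for both Csmd3 and Cdh18. For Tas2r135 the change went from 0.60 to 0.62, and the median over the set went from -0.043 to -0.016. The cause of this shift was not tested.

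The 22 genes not called ranged from -0.235 to 0.323 in log2 change. Magea8 (0.32 ± 0.13, edgeR adjusted p = 0.052) and Cap2 (0.28 ± 0.11, adjusted p = 0.051) lay nearest the threshold. Cacna2d1 had -0.04 ± 0.071 and Xlr 0.13 ± 0.075.

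Pretreated and naive WT cells at 0 h, compared next, differ by the earlier interferon and its removal, and this comparison shares the naive 0 h libraries with the one above. Here 5 of 28 genes were called, all lower, against 24% of all tested genes in either direction and 11.4% called lower. The median log2 change was -0.0365 over the 28 and -0.0036 over all tested genes. Scn3a fell from 36.2 and 33.5 CPM in naive libraries to 19.4 and 22.1 CPM in pretreated ones, a log2 change of -0.75 ± 0.097 (edgeR adjusted p = 1.1e-06). Csmd3 fell from 17.8 and 20.4 CPM to 12.7 and 11.8 CPM (-0.60 ± 0.12, adjusted p = 0.0005), and Nxf3 from 23.0 and 23.6 CPM to 18.4 and 17.4 CPM (-0.37 ± 0.094, adjusted p = 0.0043). Calls of these 3 genes held under all 15 alternatives run. The groups did not overlap in any of the 3, as in 15 of the 28 genes and 57.9% of all tested genes.

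Raet1a fell from 7.58 and 8.94 CPM to 5.20 and 5.73 CPM (-0.55 ± 0.18, edgeR adjusted p = 0.026), and Cdh18 from 20.4 and 21.9 CPM to 16.9 and 15.4 CPM (-0.37 ± 0.10, adjusted p = 0.0081). Both calls were lost without WT naive 0 h replicate 2 (adjusted p = 0.12 for Raet1a and 0.052 for Cdh18) and with DESeq2 (0.088 and 0.072). Raet1a also lost its call without WT pretreated 0 h replicate 1 (0.15), and Cdh18 without WT pretreated 0 h replicate 2 (0.090). Plcl2 and Zic1, lower after 2 h of interferon, had log2 changes of 0.01 and 0.05 here, and their pretreated 0 h libraries lay at 29.97 and 31.1 CPM and at 11.1 and 10.9 CPM.

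**Figure D4:**
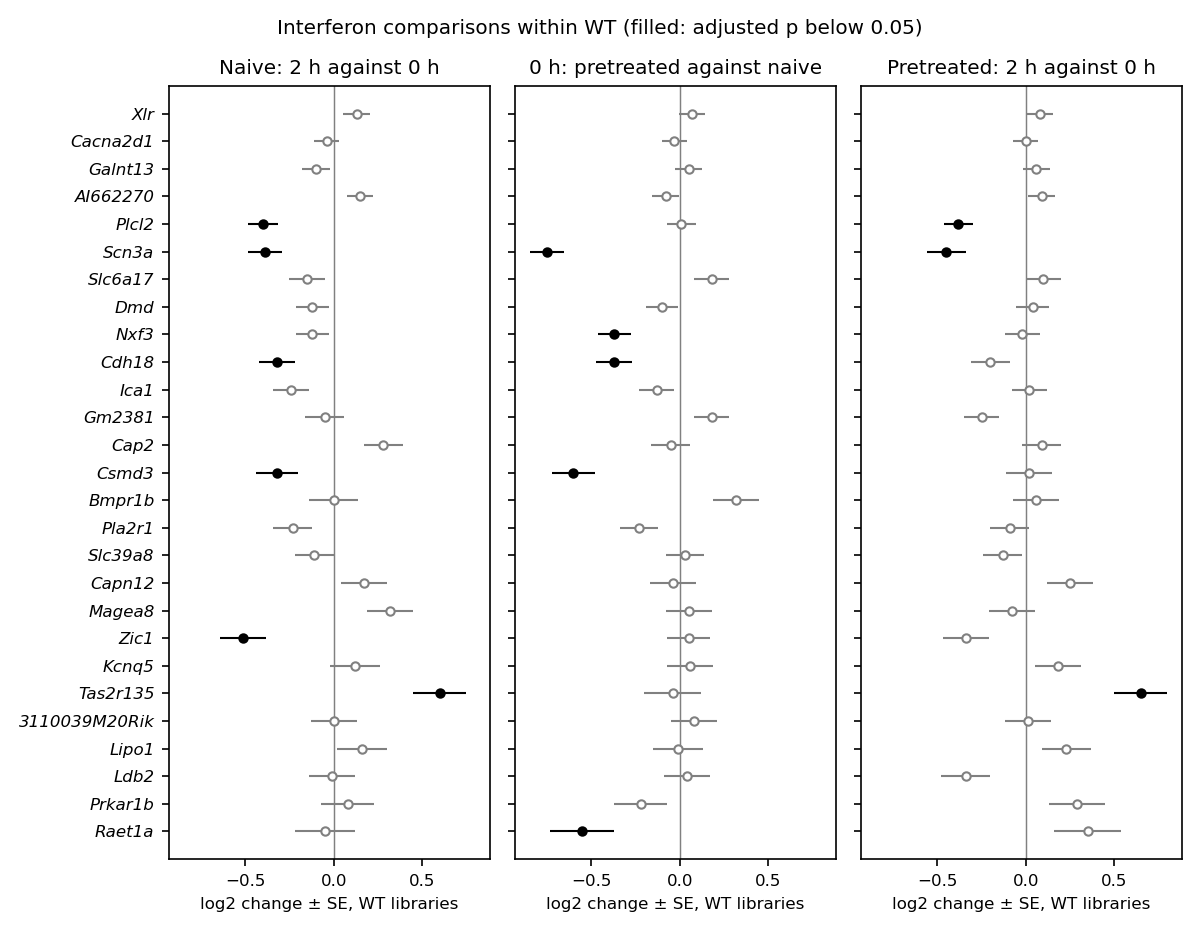
Each panel gives, for 27 of the 28 genes, the fitted log2 change (point) ± SE (bar) in 1 comparison of WT libraries (n = 2 against 2); filled points have an edgeR adjusted p below 0.05. Filled points number 6, 5 and 3 from left to right, and all lie left of 0 but those of Tas2r135.

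In pretreated WT cells stimulated again for 2 h, 3 of 28 genes were called (1 higher, 2 lower), against 22.7% of all tested genes, of which 12.2% were higher and 10.5% lower. The median log2 change was 0.0212 over the 28 and -0.00919 over all tested genes. Plcl2 fell from 29.97 and 31.1 CPM to 22.4 and 21.6 CPM (-0.38 ± 0.084, edgeR adjusted p = 0.00096), under all 15 alternatives run. Tas2r135 rose from 7.53 and 6.72 CPM to 9.28 and 11.9 CPM (0.65 ± 0.15, adjusted p = 0.002), and without WT pretreated 2 h replicate 2 its adjusted p was 0.066. Scn3a fell from 19.4 and 22.1 CPM to 13.7 and 15.02 CPM (-0.45 ± 0.11, adjusted p = 0.0029), with 0.068 without WT pretreated 0 h replicate 2 and 0.059 without WT pretreated 2 h replicate 1. Zic1 had 8.38 and 8.07 CPM at 2 h, a change of -0.34 ± 0.13 that did not pass (adjusted p = 0.065).

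Whether the second response differed from the first was tested as the difference of the 2 changes, and 0 of 28 genes were called, against 3.04% of all tested genes (1.63% higher and 1.41% lower). DESeq2 also called 0. At an unadjusted p below 0.05 there was 1, Magea8, with a difference of -0.40 ± 0.18 (edgeR adjusted p = 0.36). The differences of the 28 ran from -0.402 to 0.397 in log2, with SEs of 0.101 to 0.254. The plot of the called genes by group shows Plcl2 and Tas2r135 at about the same levels in both rounds.

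**Figure D5:**
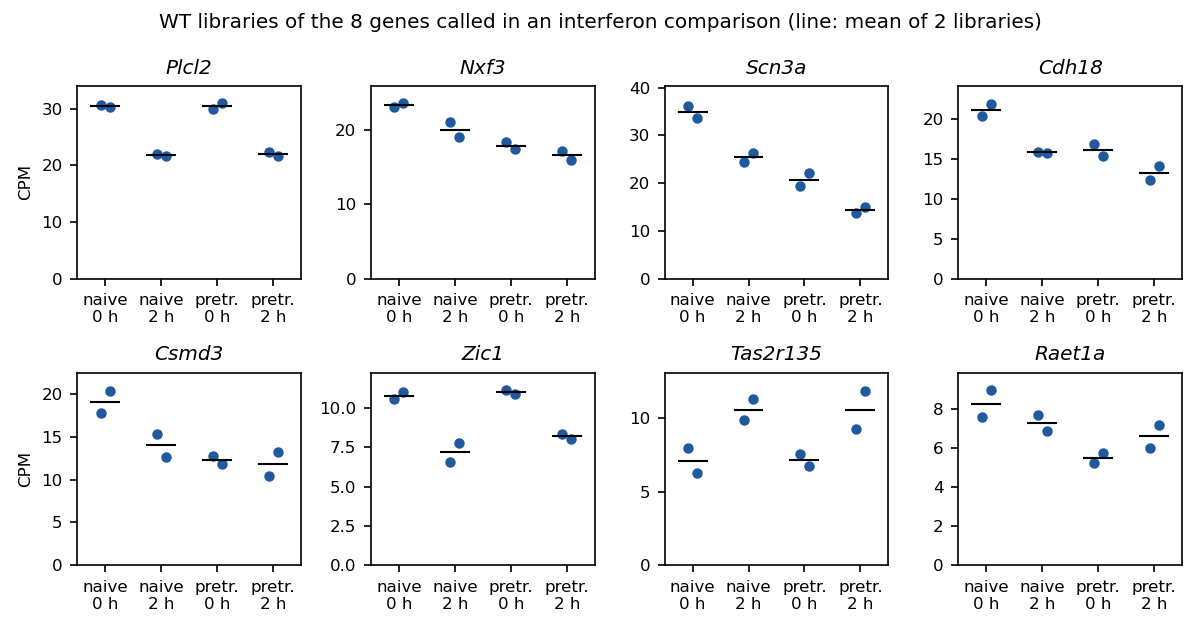
CPM on a linear axis from 0 in the 4 WT groups for the 8 genes called in at least 1 comparison; points are libraries (n = 2 per group) and lines their means. Scn3a is highest in naive 0 h libraries (33.5 and 36.2) and lowest in pretreated 2 h libraries (13.7 and 15.02), and Plcl2 is near 30 CPM at 0 h and near 22 CPM at 2 h in both kinds of cells.

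In all, 20 of the 28 genes were called in none of these 4 comparisons, against 7265 of all 13802 tested genes (52.6%), and 8 were called in at least 1, against 47.4%. A p that misses the threshold does not show that a gene kept its level. The lists that hold a gene of the set can be read the same way. Of the 23 cadherin and protocadherin genes tested, Cdh18 among them, 1 was higher and 7 lower in naive cells after interferon (median -0.134), 0 and 5 after pretreatment (median 0.00), and 2 and 2 after the second stimulation (median -0.141). In the difference of the 2 responses, 2 were higher and 0 lower (median 0.0598). Of the 71 patterning factors outside Hox, Zic1 among them, the counts were 12 and 20, 8 and 6, and 12 and 14, with 1 and 1 in the difference. Over all tested genes, the shares higher and lower were 15% and 15.6% in naive cells, 12.6% and 11.4% after pretreatment, 12.2% and 10.5% after the second stimulation, and 1.63% and 1.41% in the difference. As a check on the treatment, 38 of 44 interferon-stimulated genes were higher and 0 lower in naive cells at 2 h (median 2.29), and 41 and 0 after the second stimulation (median 3.53). None of the 28 genes is on that list, of which 13 genes were at 5 CPM or more in every WT library. The WT floor kept the others out beforehand. Those 13 passed it and were kept out by the KO ceiling, which covers interferon-treated KO libraries. The absence of listed genes from the set was therefore no test.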

How the data were processed

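The deposited values were raw counts of RNA-seq reads per gene symbol, 1 table per library. Libraries were made from TRIzol RNA with the NuGEN Ovation SP Ultralow system with paired-end sequencing (HiSeq2000), per the labels' protocols. The submitters' processing notes name HTSeq, STAR 2.5.2b, bcl2fastq 2.15 and mm9. For annotation, strand setting and filters, nothing was given in the sources used here. The 5 HTSeq summary lines were left out, and reads in no gene were 35.1% to 41.3% of uniquely aligned reads. Replicates differed beyond sampling noise (chi-square over its degrees of freedom 1.77 to 4.10).

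All counts, Rn45s and Lars2 included, were fitted with edgeR 4.0.16 in R 4.3.3 (TMM, filterByExpr with a minimum count of 10, 8 groups, 7 residual degrees of freedom). The quasi-likelihood test was adjusted by Benjamini-Hochberg over 13802 genes, with calls at an adjusted p below 0.05. The lone library of KO naive 2 h is taken to vary as the other groups do. The fit was tested on simulated data with known changes, 100 genes at each size, drawn with the spread that the fit had estimated. Fewer genes were changed than were called in the data, so these rates may not carry over to it. Log2 changes of 0.5 were recovered at 92% in naive cells, 90% after pretreatment and 91% after the second stimulation. In the difference of the 2 responses only 58% were recovered. Changes of 1 were recovered at 100% in each. False calls made up 9.43%, 5.47%, 3.54% and 4.24% of the calls, in the same order.

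The naming rule takes all 28 genes and the 3 nearest inside and outside each threshold; some genes that it or the lists take, 1 of the 28 among them, are not reported here. The 28 genes, the lists, the thresholds and the families were chosen with earlier results of these data known. Spans came from GENCODE vM21, and windows and neighbours from RefSeq (GRCm38.p6), whose build differs from that of the files: 23856 genes matched by symbol, 27 of the 28. Alternatives were other thresholds and scalings, RLE, no filter, DESeq2 1.42.0, WT alone, a replicate block, Rn45s and Lars2 left out, and each library or the 3 low ones left out. Intervals have a level of 95%. Figures were drawn with matplotlib 3.10.9.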

Additional observations from a re-analysis of the deposited data

How the results depend on the processing

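The number of genes taken moved with the thresholds: 47 with a WT floor of 3 CPM, 16 with a floor of 10, 16 with a KO ceiling of 0.25 CPM and 48 with a ceiling of 1. Keeping Rn45s and Lars2 in the library sizes gave 30 genes, 22 of them among the 28, and TMM library sizes gave 31, 23 of them among the 28. Leaving out 1 library gave 28 to 31, and leaving out the 3 libraries low in Rn45s and Lars2, an alternative chosen after seeing the data, gave 30, with all 28 among them.

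In the WT comparisons, no called gene changed direction. DESeq2 called 3 of the 28 genes in naive cells and 3 after pretreatment, while its calls over all genes went from 4229 to 3188 and from 3307 to 2384. Leaving out 1 library gave 3 to 7, 3 to 5 and 2 to 3 calls for naive, pretreated and restimulated cells, and 0 in the difference. With a replicate block the calls were 6, 5, 3 and 0. Same-numbered WT libraries did not deviate together (correlations -0.00952 to 0.0388), so no pairing by number was seen. Counting noise in single libraries could hide one, and the labels do not say. Csmd3 in naive cells also lost its call with RLE size factors (adjusted p = 0.060) and with Rn45s and Lars2 left out (0.065). Without the 3 low libraries, the calls lost were Cdh18 (0.052) and Scn3a (0.086) in naive cells, Raet1a (0.051) after pretreatment and Scn3a (0.067) after the second stimulation. Over all genes, calls in naive cells fell from 4229 to 2737 without WT naive 0 h replicate 1. After pretreatment they fell from 3307 to 2076 without that library and to 2172 without the 3 low ones. The difference fell from 420 to 256 without WT naive 0 h replicate 1 and to 271 without WT naive 2 h replicate 1. The cause was not tested.

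The KO ceiling of 0.5 CPM stood for 8.97 to 16.4 counts in the KO libraries, so KO levels of single genes are known only roughly.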
